A study of Mus musculus with 2 samples.

Results

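The 10 chemokine genes *Ccl2*, *Ccl7*, *Ccl11*, *Ccl19*, *Cxcl1*, *Cxcl12*, *Cxcl13*, *Cxcl14*, *Cxcl16* and *Cx3cl1* were followed in fibro/adipogenic progenitors (FAPs), the mesenchymal cells that lie between the fibers of skeletal muscle. They were chosen by name, with earlier results of these data known, and make up 10 of the 31053 genes counted. FAPs were sorted as lineage-negative, Vcam1-negative and Sca1-positive cells from the limb muscles of C57BL/6 mice aged 3 weeks and profiled by scRNA-Seq in droplets. How many mice were pooled for a library is not given in the sources used here. One genotype was Bap1f/f (Bap1WT), in which the floxed *Bap1* gene is intact, and the other was Prx1-Cre;Bap1f/f (Bap1ΔMPC), so the floxed allele is shared by both and Prx1-Cre is carried by Bap1ΔMPC only. *Bap1* encodes a nuclear deubiquitinase, and Prx1-Cre is active in limb mesenchyme, so it reaches the limb mesenchymal lineage as a whole and not FAPs alone. Each genotype was a single library, so no p-value is given and a difference between genotypes cannot be told apart from a difference between libraries.

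Chemokines are small secreted proteins that guide leukocytes and other cells along concentration gradients through receptors on those cells, and they are named CC, CXC or CX3C for the spacing of their first conserved cysteines. Some are held to be inflammatory, made on demand under factors such as NF-kB (*Ccl2*, *Ccl7* and *Cxcl1*), and others homeostatic, made steadily by stromal cells to position cells in tissue (*Cxcl12*, *Cxcl13* and *Ccl19*). In muscle, FAPs are a known source of such signals, and *Cxcl14* is a marker by which one of their main subpopulations is recognized, the other being marked by *Dpp4*.

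*Ccl2*, *Ccl7* and *Ccl11* are neighbors on mouse chromosome 11 (GRCm38, GENCODE vM21), at chr11:82035571-82037453, chr11:82045712-82047525 and chr11:82057823-82062955, all on the plus strand. Gaps of 8258 and 10297 bases separate them. The next genes of this cluster are *Ccl12*, *Ccl8* and *Ccl1*, of which *Ccl12* (4 and 10 UMIs in the Bap1WT and Bap1ΔMPC libraries) and *Ccl1* (1 and 1) were nearly absent, while *Ccl8* reached 1213 and 1527 UMIs. *Cxcl16* is on the same chromosome at chr11:70453983-70459984. The others are *Ccl19* at chr4:42754525-42756577, *Cxcl1* at chr5:90891241-90893115, *Cxcl13* at chr5:95956951-95961068, *Cxcl12* at chr6:117168535-117181367, *Cx3cl1* at chr8:94772009-94782427 and *Cxcl14* at chr13:56288643-56296551. *Ccl19* has the annotated pseudogenes Ccl19-ps1 and Ccl19-ps3 on its own chromosome, and how the authors' counting shared reads between such copies is not known, so its count is uncertain.

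RefSeq promoter sequences (GRCm38.p6) were at hand for 6 of the 10 genes, *Ccl19*, *Cxcl1*, *Cxcl12*, *Cxcl13*, *Cxcl14* and *Cx3cl1*. The 250 bases before the start site are printed 5′ to 3′ for 3 genes: *Cxcl1*, whose transcripts were most like those of *Nfkbia* and other response genes from cell to cell, and *Cxcl12* and *Cxcl14*, the abundant genes that differed most between the libraries in either direction. Capitals mark the matches to 4 motifs searched on both strands: the kappa-B consensus bound by NF-kB, the AP-1 motif TGANTCA, the TATA box TATAAA and the GC box GGGCGG, of which no different kinds overlap in these windows.
Cxcl1, chr5:90890995-90891244, plus strand: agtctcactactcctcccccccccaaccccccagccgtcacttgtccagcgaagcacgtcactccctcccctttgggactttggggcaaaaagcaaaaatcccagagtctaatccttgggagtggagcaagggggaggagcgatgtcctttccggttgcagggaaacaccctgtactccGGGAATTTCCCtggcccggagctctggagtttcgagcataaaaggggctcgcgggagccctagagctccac
Cxcl12, chr6:117168285-117168534, plus strand: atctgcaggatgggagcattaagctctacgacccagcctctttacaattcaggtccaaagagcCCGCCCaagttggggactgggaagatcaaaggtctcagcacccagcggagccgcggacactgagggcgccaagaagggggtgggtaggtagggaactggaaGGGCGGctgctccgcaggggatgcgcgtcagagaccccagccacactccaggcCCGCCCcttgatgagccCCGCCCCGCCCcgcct
Cxcl14, chr13:56296552-56296801, minus strand: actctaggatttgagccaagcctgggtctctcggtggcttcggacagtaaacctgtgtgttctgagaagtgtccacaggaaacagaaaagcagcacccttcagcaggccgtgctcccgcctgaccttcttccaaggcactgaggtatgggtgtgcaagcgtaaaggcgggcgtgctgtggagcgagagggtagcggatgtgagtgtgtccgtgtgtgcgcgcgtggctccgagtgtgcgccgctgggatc

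The *Cxcl1* window held the kappa-B consensus in overlapping matches on both strands, in the run GGGAATTTCCC between 71 and 61 bases before the RefSeq start, and none of the other 5 windows did. Over all 32851 promoters, 3.90% of windows of this length held it. The GC box stood 5 times in the *Cxcl12* window, the last pair sharing 1 base, and once in that of *Cx3cl1*, against 32.7% of promoters with at least 1. TATAAA was present in the windows of *Cxcl13* and *Cx3cl1* (12.4% of promoters), TGANTCA in none of the 6 (6.75% of promoters), and the *Cxcl14* window matched none of the 4. Annotations differ on the *Cx3cl1* start, which the chosen GENCODE gene span places 171 bases upstream of that of RefSeq, and on the *Ccl19* start, 212 bases upstream. A match describes the letters only, and no measurement here bears on factor binding.

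There were 4103 cells in the Bap1WT and 4378 cells in the Bap1ΔMPC library, and total depths of 51015705 and 49540066 UMIs. The median cell had 12232 UMIs in the former and 11017.5 in the latter. The libraries shared 5 cell barcodes. The targeted gene, *Bap1*, was counted 897 times (17.6 counts per 1000000 UMIs, CPM, with an interval of 16.5 to 18.8) under the label Bap1WT and 1072 times (21.6 CPM, 20.4 to 23.0) under the label Bap1ΔMPC. It was not lower in the library labelled Bap1ΔMPC. Counts per gene do not show which exons a transcript held, so the directions given here rest on the labels of the libraries. The FAP markers *Pdgfra*, *Ly6a*, *Dcn*, *Lum*, *Col1a1*, *Col3a1* and *Cd34* were all counted and every cell held at least 1 of their UMIs, with 71140 and 46380 CPM in sum. The 3 muscle stem cell markers (*Pax7*, *Myf5*, *Myod1*) had no UMI in either library. Of 13 immune markers, 5 were at 0 in the Bap1WT and 4 in the Bap1ΔMPC library (*Ptprc*, *Adgre1*, *Itgam* and *Cd3e* in both), and together they made 10.9 and 19.5 CPM. Hemoglobin transcripts, which FAPs do not make, left a UMI in 10.6% and 11.7% of cells, and the 4 Schwann cell markers in 17.9% and 42.1%, most of it *S100b*, while *Sox10* was at 0 in the Bap1ΔMPC library. Endothelial markers, mostly *Tek*, left one in 46.6% and 50.3% of cells, mural markers in 25.8% and 18.8%, and myofiber markers in 31.7% and 22.3%. No cells known to lack chemokines were in the tables, so the share of cells that free RNA alone would mark could not be measured for the chemokines.

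Cells were split by the summed UMIs of *Pi16*, *Sema3c*, *Anxa3* and *Efemp1*, none of them a chemokine, into Dpp4-type cells with 25 or more of these UMIs per 10000 and other cells with fewer. Dpp4-type cells numbered 1050 of 4103 (25.6%) and 1251 of 4378 (28.6%). The split is a cut through a continuous range: 12.9% and 18.3% of cells lay between 15 and 40 per 10000. A level in CPM is the sum of the UMIs of a gene in a class per 1000000 UMIs of all genes in that class. Intervals are exact at 95% and cover counting error only, and a UMI counts 1 transcript whatever its length.

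The 10 genes together made 1892 CPM in the Bap1WT library and 1987 CPM in the Bap1ΔMPC library. The total was lower in Dpp4-type than in other cells, at 1405 against 2078 CPM in the Bap1WT library and 770 against 2504 CPM in the Bap1ΔMPC library. In the Bap1WT library, *Cxcl1* (602 CPM) and *Ccl11* (529 CPM) came first, followed by *Cxcl14* (232 CPM), *Cxcl12* (226 CPM), *Ccl7* (158 CPM), *Ccl2* (107 CPM) and *Cxcl16* (33.8 CPM). Only the interval of *Cxcl14* (228 to 236) met that of its neighbor *Cxcl12* (222 to 231) in this order. In the Bap1ΔMPC library *Cxcl14* (690 CPM) led, before *Cxcl1* (501 CPM), *Ccl11* (349 CPM), *Ccl7* (202 CPM), *Ccl2* (119 CPM), *Cxcl12* (95.9 CPM) and *Cxcl16* (25.4 CPM). *Cxcl14* thus went from 12.3% to 34.7% of all chemokine UMIs of this list, and *Cxcl12* from 12.0% to 4.83%. *Ccl19*, *Cxcl13* and *Cx3cl1* were each between 0.807 and 3.82 CPM in both libraries. The median cell held UMIs of 3 of the 10 genes in each library, while 63 cells of the Bap1WT library (1.54%) and 280 cells of the Bap1ΔMPC library (6.40%) held none.

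**Figure D1:**
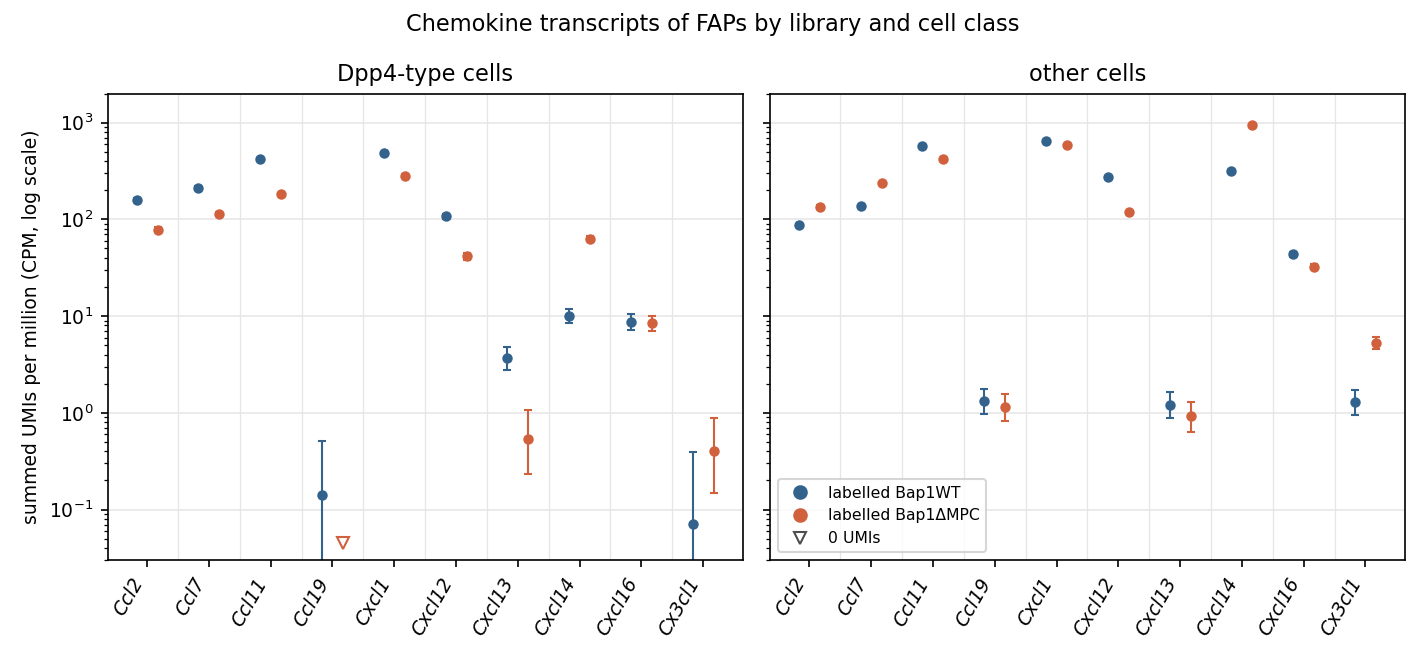
Level of each chemokine in CPM (log axis) in Dpp4-type cells (left) and other cells (right) of the libraries labelled Bap1WT (blue) and Bap1ΔMPC (orange), 1 library each. Points are levels from summed UMIs and bars exact 95% Poisson intervals, which cover counting error only; the open triangle marks *Ccl19* with 0 UMIs, and *Cxcl14* is the member with the widest gap between the classes, 10.1 against 317 CPM in the Bap1WT library.

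*Ccl2* and *Ccl7*, which draw monocytes through the receptor Ccr2, went in opposite directions in the cell classes. In Dpp4-type cells *Ccl2* stood at 160 CPM in the Bap1WT and 78.3 CPM in the Bap1ΔMPC library, a log2 ratio of -1.03 (interval -1.14 to -0.93). In other cells it stood at 86.5 and 136 CPM, a log2 ratio of 0.65 (0.59 to 0.72). Over all cells these nearly balanced, at 107 and 119 CPM. *Ccl7* followed the same course, with 213 and 113 CPM in Dpp4-type cells (log2 ratio -0.92, interval -1.003 to -0.83) and 137 and 240 CPM in other cells (0.81, interval 0.76 to 0.86). The class with the higher level therefore differed between the libraries for both genes: Dpp4-type cells in the Bap1WT library (log2 of Dpp4-type over other cells 0.89 for *Ccl2* and 0.64 for *Ccl7*) and other cells in the Bap1ΔMPC library (-0.79 and -1.09). There were 12322 genes with an average over 0.01 UMIs per 10000 and 20 or more UMIs in each library, with no minimum set within a class. Of these, 62 (0.503%) were apart by over 0.5 on the log2 scale in opposite directions in this way. The difference between these contrasts was not tested.

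Shares of cells gave part of the same picture. *Ccl2* was found in 25.1% of Dpp4-type cells (Clopper-Pearson interval 22.5 to 27.9) and 16.5% of other cells (15.2 to 17.8) of the Bap1WT library, and in 16.9% (14.8 to 19.1) and 16.9% (15.7 to 18.3) in the Bap1ΔMPC library. With each cell thinned to 5000 UMIs the shares were 17.5%, 11.1%, 11.2% and 12.8%. The intervals of the shares of *Ccl2*-positive other cells overlapped between the libraries. Those cells held 6.35 UMIs on average in the Bap1WT and 8.90 in the Bap1ΔMPC library, a mean to which few cells gave much: without the 1% of cells with most *Ccl2* the log2 ratio in other cells was 0.33 in place of 0.65. For *Ccl7* both quantities were higher in the other cells of the Bap1ΔMPC library, with 30.9% positive against 22.3% (23.9% against 15.6% after thinning) and 8.62 UMIs per positive cell against 7.39. Of Dpp4-type cells, 40.4% in the Bap1WT and 31.4% in the Bap1ΔMPC library held *Ccl7* (28.2% and 21.4% after thinning). In the Bap1ΔMPC library the intervals of the *Ccl7* shares overlapped between the classes, at 28.9 to 34.1 and 29.3 to 32.6.

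*Ccl11* (eotaxin-1), which draws eosinophils through Ccr3, was lower in the Bap1ΔMPC library in both classes. It had 418 and 182 CPM in Dpp4-type cells (log2 ratio -1.20, interval -1.27 to -1.13) and 572 and 420 CPM in other cells (-0.45, interval -0.48 to -0.42). The cells with a UMI went from 75.5% to 46.8% of Dpp4-type cells and from 68.3% to 56.4% of other cells. Thinned to equal depth, the pairs were 62.2% and 34.7%, and 59.5% and 48.2%. *Ccl11* was therefore the member found in the largest share of Dpp4-type cells in the Bap1WT library.

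*Ccl19*, a ligand of Ccr7 that guides T cells and dendritic cells in lymphoid tissue, had 51 and 40 UMIs in the whole libraries and its average level lay under the minimum of 0.01 UMIs per 10000 set for measured genes, as that of no other member did. Nearly all of its UMIs, 49 and 40, lay in other cells. Dpp4-type cells held 2 in the Bap1WT library and 0 of 1251 cells in the Bap1ΔMPC library held one, a count of 0 whose exact upper limit is 0.250 CPM, against 1.15 CPM in other cells. The log2 ratio between the libraries was -0.31 over all cells, with an interval of -0.94 to 0.32 that held 0, so a difference was not detectable at this depth.

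*Cxcl1*, which draws neutrophils through Cxcr2, was the most abundant member in the Bap1WT library. It stood at 485 and 283 CPM in Dpp4-type cells of the Bap1WT and Bap1ΔMPC libraries (log2 ratio -0.78, interval -0.83 to -0.72) and at 647 and 594 CPM in other cells (-0.12, interval -0.15 to -0.10). Summed over each class, the difference was wider in Dpp4-type cells, and the levels of the other cells were nearly alike. The other cells were not alike throughout when grouped by the UMI score that split the classes. Levels were 699 and 684 CPM at scores of 0 to 5, where the intervals overlapped. They were 587 and 471 CPM at 5 to 15, and 544 and 352 CPM at 15 to 25, with intervals apart in both. In the Bap1WT and Bap1ΔMPC libraries, 66.6% and 52.8% of Dpp4-type cells and 68.2% and 59.9% of other cells held a UMI. After thinning these shares were 53.0%, 40.9%, 56.8% and 50.5%.

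*Cxcl12* (SDF-1), the ligand of Cxcr4 that retains hematopoietic and other progenitors in their niches, was lower in the Bap1ΔMPC library in both classes by like amounts. Levels were 107 and 41.6 CPM in Dpp4-type cells (log2 ratio -1.37, interval -1.50 to -1.23) and 272 and 119 CPM in other cells (-1.19, interval -1.25 to -1.14). The cells with a UMI went from 58.8% to 28.8% and from 80.3% to 51.2%, and from 35.6% to 15.7% and 62.2% to 33.8% after thinning. Over all cells of the Bap1WT library *Cxcl12* was found in 74.8% of cells and *Ccl11* in 70.1%, but after thinning in 55.4% and 60.2%, so the order of these shares turned with depth. In both libraries it was lower in Dpp4-type than in other cells, 2.54-fold and 2.86-fold.

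*Cxcl13*, which draws B cells through Cxcr5, was rare, with 97 UMIs in 35 cells of the Bap1WT library and 40 UMIs in 28 cells of the Bap1ΔMPC library. In Dpp4-type cells there were 52 UMIs in 20 cells and 8 UMIs in 5 cells, a log2 ratio of -2.77 (interval -4.05 to -1.68). In other cells there were 45 and 32 UMIs (-0.41, interval -1.11 to 0.28). Single cells carried much of this count, with up to 18 UMIs in Dpp4-type and 24 UMIs in other cells of the Bap1WT library. Without the 1% of cells with most *Cxcl13* the log2 ratio in Dpp4-type cells was -1.80.

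*Cxcl14*, a homeostatic chemokine whose receptor is not settled, was the abundant member with the widest differences, both between classes and between libraries. Other cells held 317 CPM in the Bap1WT and 956 CPM in the Bap1ΔMPC library, a log2 ratio of 1.59 (interval 1.56 to 1.62, 3.02-fold). Dpp4-type cells held 10.1 and 63.2 CPM, a log2 ratio of 2.65 (interval 2.40 to 2.92, 6.28-fold). *Cxcl14* was 31.5-fold and 15.1-fold lower in Dpp4-type than in other cells of the Bap1WT and Bap1ΔMPC libraries. Positive cells made up 44.0% and 55.5% of other cells (35.5% and 48.2% after thinning) and 5.52% and 19.8% of Dpp4-type cells (2.63% and 10.6%). Each positive other cell held 8.71 UMIs on average in the Bap1WT and 19.2 in the Bap1ΔMPC library, and the most in 1 cell was 85 and 233 UMIs. So in other cells both the share of cells and the mean number of transcripts in each were higher. Positive Dpp4-type cells held 2.45 and 3.76 UMIs on average. Their median level was alike, at 0.92 and 0.93 UMIs per 10000. The log2 ratio in Dpp4-type cells moved with the choice of cells. With Dpp4-type cells taken from 15 per 10000 upward the log2 ratio was 1.82, and without cells holding 2 or more UMIs of immune or endothelial markers, most of them removed for *Tek*, it was 3.93. With *Tek* taken off that list it was 2.67.

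*Cxcl16* and *Cx3cl1* are made as membrane proteins whose chemokine domain can be shed by Adam10 and Adam17; the first draws T cells through Cxcr6 and the second monocytes and microglia through Cx3cr1. *Cxcl16* differed little between the libraries in Dpp4-type cells, with 8.71 and 8.47 CPM (log2 ratio -0.04, interval -0.41 to 0.33). In other cells it was lower in the Bap1ΔMPC library, with 43.4 and 32.6 CPM (-0.42, interval -0.53 to -0.31). There *Cxcl16* was found in 36.4% and 26.6% of cells (19.1% and 14.2% after thinning). Its class difference was larger, 4.98-fold and 3.85-fold lower in Dpp4-type cells. *Cx3cl1* had 49 UMIs in the Bap1WT and 189 UMIs in the Bap1ΔMPC library, or 0.961 and 3.82 CPM, a log2 ratio of 1.99 (interval 1.53 to 2.47, 3.97-fold). All but 1 of the 49 and all but 6 of the 189 lay in other cells, in which 1.38% and 4.80% of cells had a UMI (0.594% and 2.44% after thinning). These transcripts lay in few cells, and the 1% of cells with most *Cx3cl1* held 98.0% of its UMIs in the Bap1WT library, so a ratio without them would rest on very few UMIs there. *Adam10* (47.9 and 63.1 CPM) and *Adam17* (56.9 and 84.7 CPM), the sheddases, were both present. *Cx3cr1*, the receptor of *Cx3cl1*, had 8 and 45 UMIs.

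**Figure D2:**
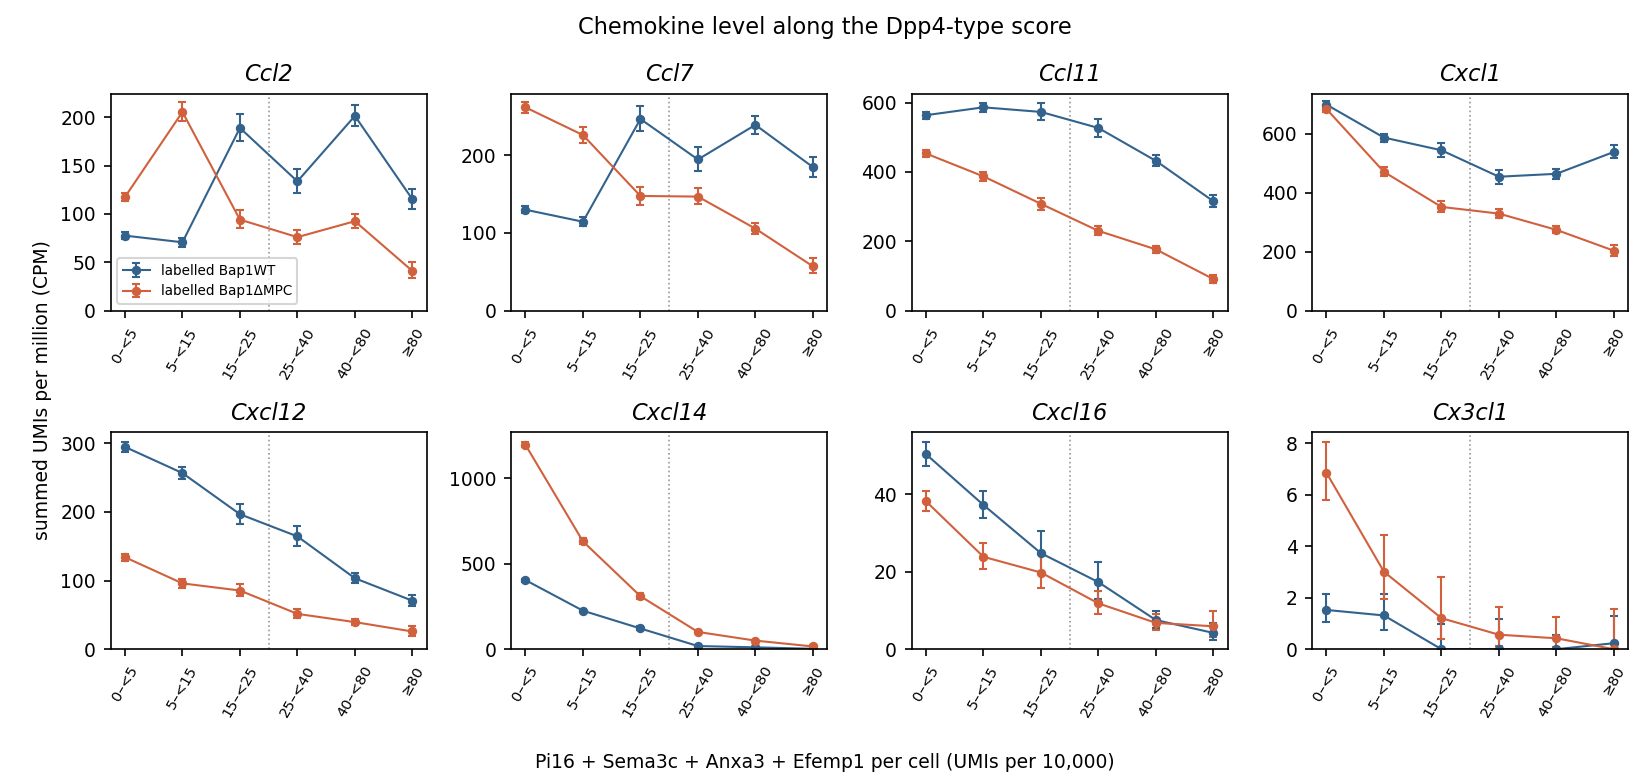
Level (CPM, linear axes from 0) of 8 chemokines in cells grouped by the summed UMIs per 10000 of *Pi16*, *Sema3c*, *Anxa3* and *Efemp1*, in the libraries labelled Bap1WT (blue) and Bap1ΔMPC (orange); bars are exact 95% Poisson intervals and the dotted line is the cut of 25 for Dpp4-type cells. *Cxcl14* goes from 405 to 2.34 CPM in the Bap1WT and from 1197 to 16.1 CPM in the Bap1ΔMPC library, and the lines of *Ccl2* and *Ccl7* cross.

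The cut did not set these patterns alone. Along 6 ranges of the same 4-gene score, *Ccl11*, *Cxcl1* and *Cxcl12* were lower in the Bap1ΔMPC library in 6 of 6 ranges, with intervals apart in 6, 5 and 6 of them. *Cxcl14* was higher in 6 of 6, with intervals apart in all. *Cxcl12* went down step by step with the score in both libraries, from 295 to 70.6 CPM in the Bap1WT and from 134 to 25.8 CPM in the Bap1ΔMPC library. *Cxcl1* started almost level at the lowest scores (699 and 685 CPM) and ended at 539 and 203 CPM at the highest. *Ccl2* and *Ccl7* were higher in the Bap1ΔMPC library in the 2 lowest ranges and lower in the other 4. In the range of 5 to 15, *Ccl2* had 70.7 and 206 CPM, and in the next, of 15 to 25, 189 and 94.1 CPM. In these sums the change of direction thus lay below the cut of 25. The ranges were not recomputed without the cells with most *Ccl2*, of which the top 1% held 40.8% and 49.4% of its UMIs.

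Among measured genes, those over the minimum average level and with 20 or more UMIs in the cells compared, the count of members past 3-fold was read beside the share of all genes past it. Over all cells 9 of the 10 genes were measured, and 1, *Cx3cl1*, was over 3-fold higher in the Bap1ΔMPC library (1.84% of 12380 genes were) and 0 were over 3-fold lower (1.28%). *Cxcl14* stood just under, at 2.97-fold. Past 2-fold were *Cx3cl1* and *Cxcl14* upward (4.19% of genes) and *Cxcl12* and *Cxcl13* downward (3.52%). In Dpp4-type cells 8 were measured, with *Cxcl14* over 3-fold higher (1.64% of 12066 genes) and *Cxcl13* over 3-fold lower (1.38%). Past 2-fold the counts were 1 higher (3.84%) and 4 lower (3.99%), the latter being *Ccl2*, *Ccl11*, *Cxcl12* and *Cxcl13*. In other cells 9 were measured, with *Cxcl14* and *Cx3cl1* over 3-fold higher (2.36% of 12371 genes) and 0 over 3-fold lower (1.33%). Past 2-fold there were again 2 higher (5.02%), and 1 lower, *Cxcl12* (3.73%). Between the classes, 3 members, *Cxcl14*, *Cxcl16* and *Cx3cl1*, were over 3-fold lower in Dpp4-type cells in both libraries (4.26% of 12322 genes) and 0 were over 3-fold higher (1.52%). For this contrast the 20 UMIs were required in each library over all cells, not in each class. As *Cxcl14* is a marker of the other main subpopulation, its direction between the classes was known beforehand. The median log2 ratio between the libraries was -0.26 over the measured members in all cells, -0.97 in Dpp4-type cells and -0.12 in other cells, beside medians of 0.10, 0.07 and 0.11 over all genes. With 8 or 9 genes these counts are a description only.

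**Figure D3:**
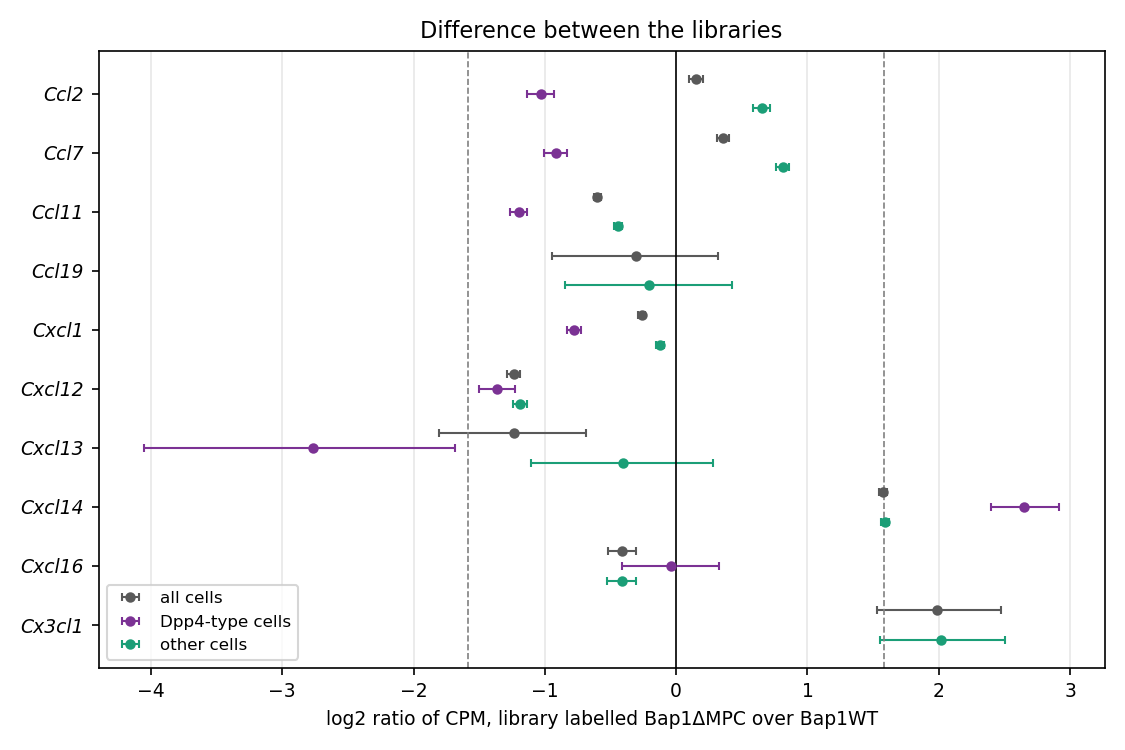
Log2 ratio of CPM, library labelled Bap1ΔMPC over library labelled Bap1WT, for each chemokine in all cells (grey), Dpp4-type cells (purple) and other cells (green), with exact 95% intervals for counting error; dashed lines mark 3-fold. *Ccl2* and *Ccl7* lie left of 0 in Dpp4-type and right of 0 in other cells, and *Cxcl14* lies at 2.65 and 1.59; *Ccl19* and *Cx3cl1* in Dpp4-type cells had 3 or fewer UMIs in the Bap1WT library and are not drawn.

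Transcripts of *Ccl2* and *Ccl7* were packed into few cells. The 1% of cells with most *Ccl2* held 40.8% of its UMIs in the Bap1WT library and 49.4% in the Bap1ΔMPC library, and the top 5% held 79.0% and 82.0%. The single highest cells had 205 and 551 *Ccl2* UMIs. For *Ccl7* the top 5% of cells held 69.8% and 62.1%, for *Cxcl14* 51.0% and 51.3%, for *Cxcl1* 35.6% and 39.5%, for *Cxcl16* 32.5% and 41.0%, for *Ccl11* 26.8% and 35.5%, and for *Cxcl12* 23.3% and 38.9%. *Cxcl12* was thus the most evenly spread of these in the Bap1WT library. With its top 1% of cells left out, the log2 ratio of *Ccl2* over all cells went from 0.15 to -0.03. In the classes, where that 1% was taken within each class, *Ccl2* and *Ccl7* kept their signs under each alternative tried, between -1.11 and -0.79 and between -1.22 and -0.45 in Dpp4-type cells, and between 0.33 and 0.91 and between 0.69 and 1.02 in other cells.

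**Figure D4:**
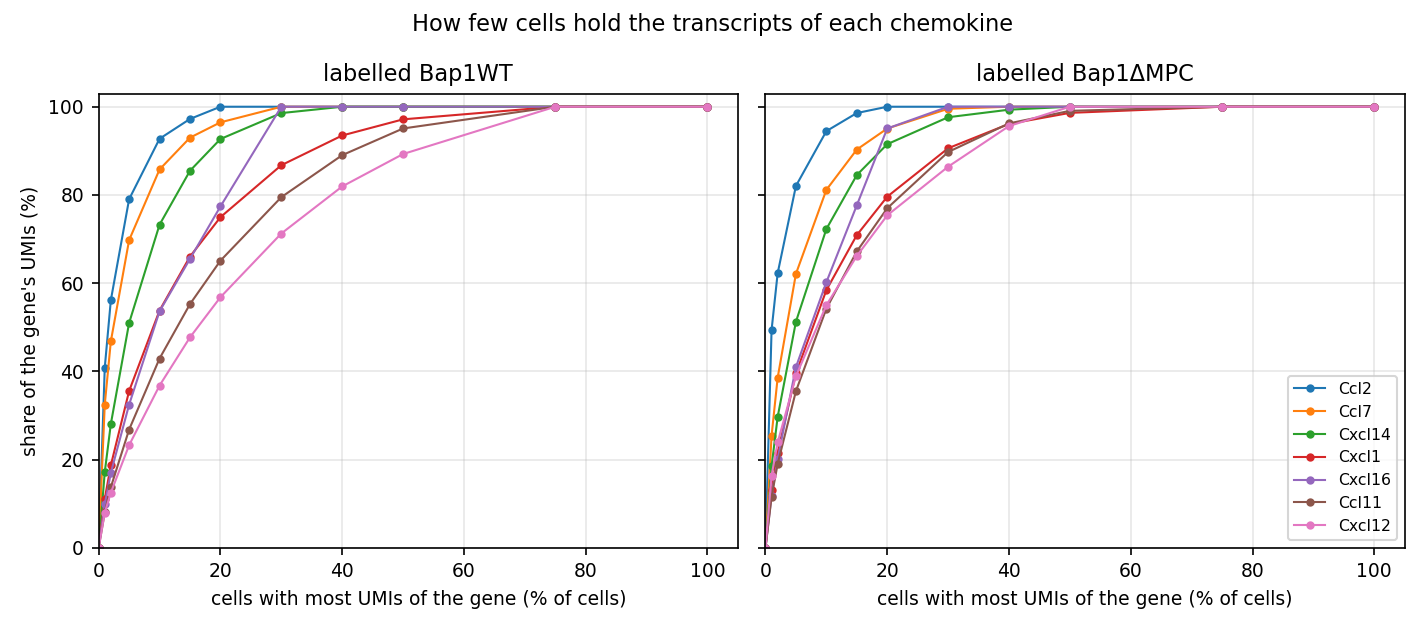
Share of the UMIs of each chemokine (vertical axis, %) held by the given share of cells with most of them (horizontal axis, %), in the library labelled Bap1WT (left) and Bap1ΔMPC (right). The top 5% of cells hold 79.0% and 82.0% of *Ccl2* UMIs but 23.3% and 38.9% of those of *Cxcl12*.

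Cells with one inflammatory chemokine tended to hold another. Among *Ccl2*-positive cells, 49.0% (Bap1WT) and 53.3% (Bap1ΔMPC) also had *Ccl7*, against 21.9% and 26.5% of *Ccl2*-negative cells. Positive cells were deeper, with medians of 14028 and 12008 UMIs against 11912 and 10818. As levels relative to depth, these were 400 and 471 CPM of *Ccl7* in *Ccl2*-positive cells and 94.0 and 141 CPM in the rest. *Cxcl1* was also higher in *Ccl2*-positive cells, 828 against 542 CPM and 809 against 431 CPM. *Cxcl12* was lower in them in the Bap1WT library, 190 against 236 CPM, and slightly higher in the Bap1ΔMPC library, 102 against 94.6 CPM.

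Across cells, on log(1 + UMIs per 10000), Pearson's r for *Ccl2* with *Ccl7* was 0.39 over the 4103 cells of the Bap1WT library and 0.31 over the 4378 cells of the Bap1ΔMPC library. Within Dpp4-type cells it was 0.42 and 0.29, and within other cells 0.36 and 0.32. The other pair of that size was *Ccl11* with *Cxcl14*, at 0.30 and 0.34. It was 0.12 and 0.12 within Dpp4-type and 0.33 and 0.33 within other cells. Cells of a library share their preparation and differ in depth, so these values are descriptions and carry no test.

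**Figure D5:**
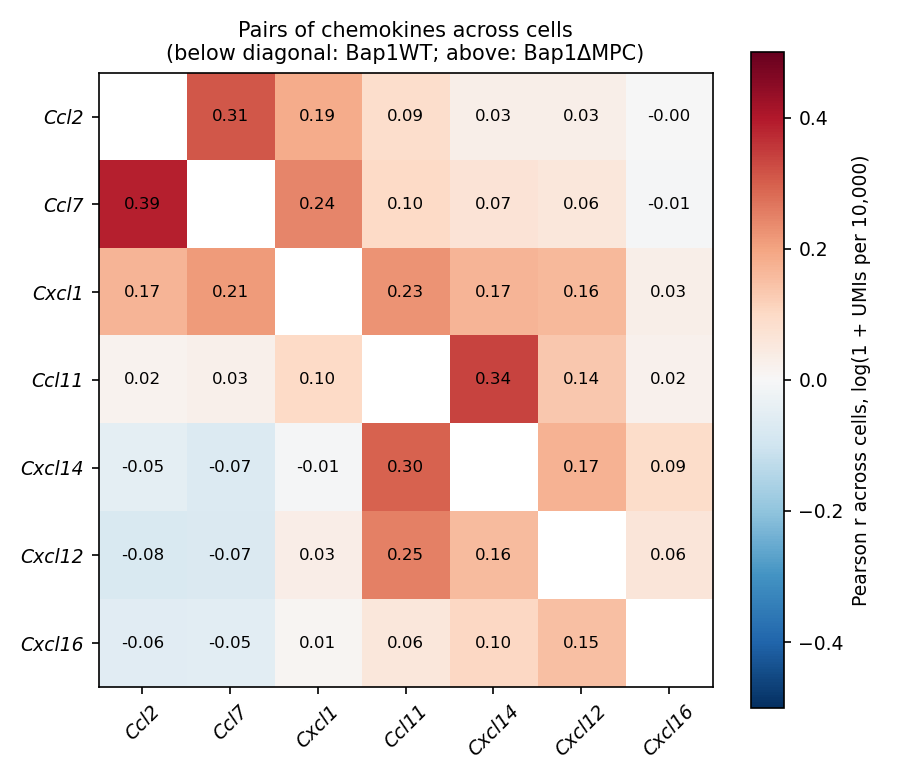
Pearson's r across cells for each pair of the 7 chemokines with 1000 or more UMIs in each library, below the diagonal in the library labelled Bap1WT and above it in the library labelled Bap1ΔMPC. The darkest cells are *Ccl2* with *Ccl7* (0.39 and 0.31) and *Ccl11* with *Cxcl14* (0.30 and 0.34).

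The 5 genes most like each chemokine from cell to cell were named by mean r. For *Ccl2* they were *Ccl7*, *Nfkbia*, *Cxcl10*, *Ptx3* and *Tnfaip6*, with mean r over the libraries from 0.35 to 0.21. *Ccl7* had *Ccl2* and the same 4 others, from 0.35 to 0.23. For *Cxcl1* they were *Junb*, *Nfkbia*, *Nfkbiz*, *Zfp36* and *Gadd45b*, from 0.38 to 0.31. *Nfkbia*, the inhibitor of NF-kB that NF-kB itself induces, thus stood in all 3 lists. *Ccl11* and *Cxcl14* shared *Col4a1*, *Col4a2* and *Col15a1*, genes of basement membrane collagens, with *Lamb1* and *Lpl* besides for *Ccl11* (0.46 to 0.39) and *Fbln7* and *Smoc2* for *Cxcl14* (0.47 to 0.40). *Cxcl12* had *Igfbp7*, *Col15a1*, *Cygb*, *Col4a2* and *Gdf10* (0.37 to 0.28), and *Cxcl16* had *Igfbp7*, *Bgn*, *Cst3*, *Cygb* and *Mgp* (0.27 to 0.24).

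Levels also varied between smaller groups of cells, taken as those with 3 or more UMIs per 10000 over a few genes that lead groups already seen in these data. Cells with *Spon1*, *Cldn2*, *Hsd11b2* and *Angpt4* numbered 137 in the Bap1WT and 951 in the Bap1ΔMPC library. *Cxcl14* stood at 672 and 1749 CPM in them and at 218 and 399 CPM in all remaining cells, so its log2 ratio between the libraries was 1.38 (interval 1.29 to 1.47) in this group and 0.87 (0.83 to 0.91) outside it, beside 1.57 over all cells. *Ccl11* was alike in these cells, at 544 and 548 CPM, but not in the remaining cells, at 529 and 294 CPM. *Cxcl1* was higher in them in the Bap1ΔMPC library, 614 and 860 CPM, and lower outside, 602 and 402 CPM. *Cxcl12* was lower both inside (278 and 162 CPM) and outside (225 and 77.7 CPM). *Ccl2* stood at 72.9 and 139 CPM inside and at 108 and 113 CPM outside. *Ccl7* stood at 219 and 347 CPM inside and at 156 and 162 CPM outside. The cells outside include Dpp4-type cells. How far the size of this group bears on the levels of these genes in other cells was not tested.

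Cells with *Hmcn1*, *Meox1* and *Etv4* numbered 577 and 199. They held little *Ccl7* in the Bap1WT library, 18.6 CPM against 179 CPM in the remaining cells, and 84.7 CPM in the Bap1ΔMPC library. *Cxcl12* was 327 and 110 CPM in them. Cells with the tendon-type genes *Chad*, *Tnmd* and *Cilp2*, 110 and 255 in number, were low in *Ccl11*, at 65.6 and 38.5 CPM. Their *Ccl2* was 45.8 and 176 CPM. Cells with *Fmo2*, *Angpt2* and *Stc1* (465 and 63) had *Cxcl14* at 56.8 and 55.8 CPM and *Cxcl12* at 360 and 310 CPM. In the same cells *Ccl2* was lower in the Bap1ΔMPC library, at 81.2 and 31.7 CPM (433 and 21 UMIs), as were *Cxcl1*, at 802 and 585 CPM, and *Ccl11*, at 370 and 283 CPM, while *Ccl7* stood at 110 and 127 CPM.

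Of 30 further chemokine ligands counted, 9 were measured and 0 passed 3-fold over all cells in either direction. *Cxcl10*, a ligand of Cxcr3 induced by interferon and NF-kB, was the most abundant, with 202 and 109 CPM in Dpp4-type cells and 87.1 and 212 CPM in other cells, an arrangement of levels like that of *Ccl2*. *Cxcl9*, another Cxcr3 ligand, had 23.1 and 26.1 CPM over all cells. *Ccl8*, the cluster neighbor of *Ccl2*, had 23.8 and 30.8 CPM. In Dpp4-type cells 8 of these ligands were measured and 1 was over 3-fold lower (1.38% of 12066 genes were). This was *Cxcl2*, a Cxcr2 ligand like *Cxcl1*, with 46.8 and 11.9 CPM.

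Of 23 chemokine receptors, 18 had too few UMIs to be measured, with at most 19 UMIs in the Bap1WT and 45 in the Bap1ΔMPC library. *Cxcr4* had 12 and 21 UMIs, *Ccr2* 0 and 1, *Cxcr2* 10 and 9, and *Ccr3* 0 and 0. The 5 measured were *Ccrl2* and the atypical receptors *Ackr1*, *Ackr2*, *Ackr3* and *Ackr4*, which bind chemokines without the usual signaling and can remove them. All 4 Ackr genes were over 3-fold higher in Dpp4-type cells in both libraries, as 1.52% of 12322 genes were. *Ackr3*, which takes up the ligand encoded by *Cxcl12*, had 781 and 1244 CPM in Dpp4-type cells and 222 and 405 CPM in other cells. *Ackr1* had 159 and 190 CPM against 26.3 and 36.9 CPM, and *Ackr2*, which takes up inflammatory CC chemokines, 49.7 and 80.1 CPM against 3.93 and 6.38 CPM. *Ackr4*, which takes up the ligand encoded by *Ccl19*, had 34.9 and 58.9 CPM against 10.1 and 15.5 CPM. Between the libraries *Ackr3* was 1.74-fold higher over all cells in the Bap1ΔMPC library, where *Cxcl12* was 2.36-fold lower, and none of the 5 passed 2-fold.

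Of 9 genes for proteases that cut chemokines, 7 were measured and 0 passed 3-fold between the libraries. *Mmp2* (1006 and 1027 CPM) and *Mmp14* (210 and 267 CPM), matrix metalloproteinases, and *Fap* (188 and 143 CPM), a relative of *Dpp4*, were the most abundant. *Dpp4*, whose product clips the ends of chemokines such as those of *Cxcl12* and *Ccl11*, had 298 and 268 CPM in Dpp4-type cells and 56.5 and 39.5 CPM in other cells.

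Of 22 genes of the NF-kB pathway and its response, 21 were measured and 0 passed 3-fold over all cells, with a median log2 ratio of 0.12. In Dpp4-type cells the median was -0.21 and 1 of 21 measured genes was over 3-fold lower (1.38% of 12066 genes were). This was the cytokine gene *Lif* (61 and 15 UMIs). In other cells the median was 0.27. *Nfkbia* had 623 and 460 CPM in Dpp4-type cells and 468 and 568 CPM in other cells. *Ptx3*, a secreted pattern recognition protein, had 686 and 312 CPM in Dpp4-type cells and 119 and 154 CPM in other cells. *Tnfaip6*, a hyaluronan-binding protein, had 833 and 618 CPM against 426 and 443 CPM. *Nfkbia* and *Ptx3* were thus lower in Dpp4-type cells and higher in other cells of the Bap1ΔMPC library, with log2 ratios of 0.28 and 0.37 in other cells, while that of *Tnfaip6* in other cells was 0.06, under the median of 0.11 over all genes.

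Of 11 genes of lymphoid stroma, 6 were measured. Over all cells 1, *Il7*, a survival factor of lymphocytes, was over 3-fold higher in the Bap1ΔMPC library, with 49 and 145 UMIs (1.84% of 12380 genes were). TMM scaling was not run for it. In Dpp4-type cells 1 of 6 was over 3-fold higher (1.64% of 12066 genes), and in other cells 0 of 6 (2.36% of 12371 genes). *Tnfrsf1a* (142 and 172 CPM), *Pdpn* (112 and 106 CPM) and *Ltbr* (68.5 and 74.8 CPM), all receptors or surface proteins of stromal cells, differed little.

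Immediate early and dissociation genes, which respond to the digestion of tissue as well as to signals, stood high in both libraries. All 20 were measured, 0 passed 3-fold between the libraries, and the median log2 ratio was 0.15 over all cells, -0.05 in Dpp4-type and 0.19 in other cells. *Fos* had 3195 and 4170 CPM, *Jun* 3292 and 3282 CPM and *Egr1* 2432 and 2772 CPM. Their part in the levels of *Ccl2*, *Ccl7* and *Cxcl1* was not tested. The immune markers were also higher in the Bap1ΔMPC library, at 17.7 against 10.5 CPM in Dpp4-type and 20.3 against 11.1 CPM in other cells, and 161 and 267 cells held 2 or more UMIs of immune or endothelial markers other than *Tek*. Without these cells *Ccl2* over all cells had a log2 ratio of -0.07 in place of 0.15.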

How the data were processed

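FAPs of each genotype were measured as 1 10x Genomics Chromium 3′ v3.1 library. Per the labels, the authors used Cell Ranger 3.1.0 with build mm10 and Seurat 3.2.1; the deposited values are raw UMI counts per gene and cell, not normalized, after the filters on quality, doublets and other cell types that the methods state. Every deposited cell had 1501 to 4998 genes and at most 5.00% mitochondrial UMIs. No cell was removed here and no doublet caller was run.

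UMIs were summed per library and class and scaled to CPM. With 1 library per genotype no test was run. Ratios carry exact conditional binomial 95% intervals, CPM exact Poisson and shares Clopper-Pearson intervals, for counting error only; PCR duplicates were collapsed by UMI. Where 1 of 2 counts was 0, 3 counts over the class stood in for it, and no ratio was formed where both counts were 3 or fewer. Genes were measured with a mean over 0.01 UMIs per 10000 and 20 or more UMIs (12380 over all cells).

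The members and the gene lists were chosen with earlier results of these data known. All 10 members were named, with the 3 most abundant genes of each list, those with 100 or more UMIs and over 3-fold, the 5 genes of highest mean r for each member with 1000 or more UMIs in each library, and *Bap1*. *Adam10*, *Adam17*, *Dpp4*, *Ackr2*, *Cxcl2*, *Lif* and the receptors of the members were named besides, after their values were seen. Of the lists, *Cxcl11* is not in the tables. Thinning to 5000 UMIs left out 120 and 210 cells. Thinned shares of cells are expected values, while thinned log2 ratios come from a random draw that was not repeated. On simulated sums with 200 genes changed 4-fold, 199 were recovered over all cells (12380 genes), 193 in Dpp4-type cells (12066 genes; 7 unchanged genes passed 3-fold) and 200 in other cells (12371 genes). With 1 library per genotype the spread between libraries is not known, and these counts do not bear on it. Python 3.11.15, scipy 1.17.1, R 4.3.3 and edgeR 4.0.16 (TMM factors only) were used.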

Additional observations from a re-analysis of the deposited data

Results flagged for a closer look

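For *Ccl2* the log2 ratio of Dpp4-type over other cells was 0.89 in the library labelled Bap1WT and -0.79 in the library labelled Bap1ΔMPC, and the log2 ratio between the libraries was -1.03 in Dpp4-type and 0.65 in other cells, so the directions were opposite. For *Ccl7* the same values were 0.64 and -1.09 between the classes, and -0.92 and 0.81 between the libraries. Each group of cells was 1 library, and the difference between these contrasts was not tested.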

How the results depend on the processing

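No paired analysis was possible because there is only 1 sample per genotype, which also leaves no replicate to omit, and ratios were computed without a test. 

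The 1 member past 3-fold over all cells became 2 without cells holding 2 or more UMIs of immune or endothelial markers and 4 past 2-fold. That marker list includes *Tek*, which many Dpp4-type cells held, so the rule removed 1197 and 1590 cells; without *Tek* in it, an alternative added after seeing the data, the count stayed at 1. The 2 members past 3-fold in Dpp4-type cells became 1 without the marker-holding cells, 1 without the 1% of cells with most of the member (*Cxcl13* then had under 20 UMIs), 1 with 100 or more UMIs required, 3 with no minimum, and 5 past 2-fold. The 2 in other cells became 1 with TMM scaling, 1 with Dpp4-type cells taken from 40 per 10000, and 1 without cells of immune or endothelial markers other than *Tek*, and 3 past 2-fold. *Cxcl14* in other cells lay at 3.02-fold. The 3 members past 3-fold between the classes were 2 to 4 under the alternatives run for them. TMM scaling, other minimum UMIs and leaving out all marker-holding cells were not run between the classes. 

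Of 412 member ratios recomputed under the alternatives, 259 stayed within the counting interval of the reported value, 150 moved outside it, and 3 changed sign from a value whose interval did not hold 0. These were *Ccl2* over all cells, at -0.073 without cells of immune or endothelial markers other than *Tek* and at -0.034 without the 1% of cells with most *Ccl2*, and *Ccl19* between the classes in the Bap1ΔMPC library, at 0.82 without the 1% of cells with most *Ccl19*, where the count of 0 in Dpp4-type cells was taken as 3. From intervals that held 0, *Cxcl13* in other cells went to 0.35 after thinning, *Cxcl16* in Dpp4-type cells to 0.08 and *Cxcl13* between the classes in the Bap1ΔMPC library to 0.09 with Dpp4-type cells from 40. *Cx3cl1* over all cells went to 5.90 without the 1% of cells with most of it, which left few UMIs in the Bap1WT library. The cause was not tested. TMM factors shifted the log2 ratios between libraries down by about the median of all genes. Depth limits *Ccl19*, *Cxcl13* and *Cx3cl1*, which had 40 to 189 UMIs per library.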
